A study of Trichechus manatus latirostris with 11 samples.

Results

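Genes of lipid storage, sterol synthesis and fatty acid metabolism were examined in buffy coat RNA, the leukocyte layer that forms when blood is spun, from Florida manatees. The list held 46 gene symbols in 6 roles: monoacylglycerol and triglyceride synthesis, lipid droplet coats and lipolysis, fatty acid activation and oxidation, fatty acid synthesis, sterol synthesis and sensing, and lipid-sensing nuclear receptors. Symbols were chosen by role in metabolism and matched to the transcript records of the TriManLat1.0 manatee assembly, and 34 of the 46 had a row, 1 each, among the 15298 rows of the deposited table. The other 12 (DGAT1, DGAT2, GPAM, LPIN1, LPIN3, PLIN4, LIPE, FASN, SREBF1, SQLE, SOAT1 and NR1H3) were not analysed here.

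RNA-seq libraries were made from 11 adult animals with ribosomal and globin RNA removed. The red tide group comprised 4 manatees taken from an area with a bloom of the toxic alga behind red tide and treated for that illness at Lowry Park Zoo, of which 2 were sampled on arrival and 2 after a week of treatment. The control group comprised 7 manatees, of which 4 were sampled at Crystal River, 2 in the Indian River Lagoon and 1 at Lowry Park Zoo, where it was recovering from pneumonia. All 4 red tide animals were sampled at the zoo and 6 of the 7 controls in the field, so illness, place, date and handling of the sample cannot be told apart.

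The table gives, for each record, the mean normalized count (reads divided by the size factor of the library, the authors' measure of its relative depth) over the 11 libraries together and within each group. The first group mean averages 4 libraries and the second 7, from their weights in the overall mean. The columns name no group. Their link to red tide and control rests on these sizes and on the order of names in the title of the table. The directions that the study's text gives run the other way, for genes that it lists as raised and as lowered. MOGAT2, CXCR2, CXCR1, MMP9, IL6 and PCLO are among them. Which mean is red tide is therefore unsettled, and values are given here as the 4-library mean and the 7-library mean, with no direction of illness. Normalized counts are not scaled to transcript length, and levels are compared between groups only, never between genes.

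Fat is stored in cells as triglyceride inside lipid droplets, whose surface is coated by perilipins, and is released again by lipases. Fatty acids are activated to acyl-CoA, carried into mitochondria by the carnitine shuttle and oxidised, while cholesterol is made by a separate pathway under control of the SREBP and INSIG proteins, which sense sterols in the endoplasmic reticulum. In blood leukocytes, oxidation of fatty acids is an energy source of resting and memory lymphocytes and of some macrophages, and lipid droplets are sites of eicosanoid synthesis in activated cells.

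Of the 34 genes, 9 were at least 2-fold higher in the 4-library mean, 5 were at least 2-fold lower and 20 lay between. Over all rows 23.9% were at least 2-fold higher and 10.4% at least 2-fold lower, so the shares of the lipid genes, 26.5% and 14.7%, were near those of the table. On the log2 scale the ratio of the group means (4-library over 7-library) had a median of 0.06 for the lipid genes and 0.14 for all rows. Rows of low counts differed more often: 47.3% of rows with an overall mean under 10 were at least 2-fold higher, against 12.3% of rows with an overall mean of at least 10. Of the 23 lipid genes with an overall mean of at least 10, 5 were at least 2-fold higher (PLIN2, ACADM, HMGCS1, INSIG1 and PPARG) and 3 were at least 2-fold lower (MOGAT2, PNPLA2 and CPT2), where 9.59% of such rows were lower. Of the 14 with an overall mean of at least 100, 3 were at least 2-fold higher, against 8.76% of such rows, and 0 at least 2-fold lower, against 8.09%. The median log2 ratio was -0.39 for the 23 genes with an overall mean of at least 10, against -0.01 for all such rows, and 0.26 for the 14 with at least 100, against -0.04.

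**Figure D1:**
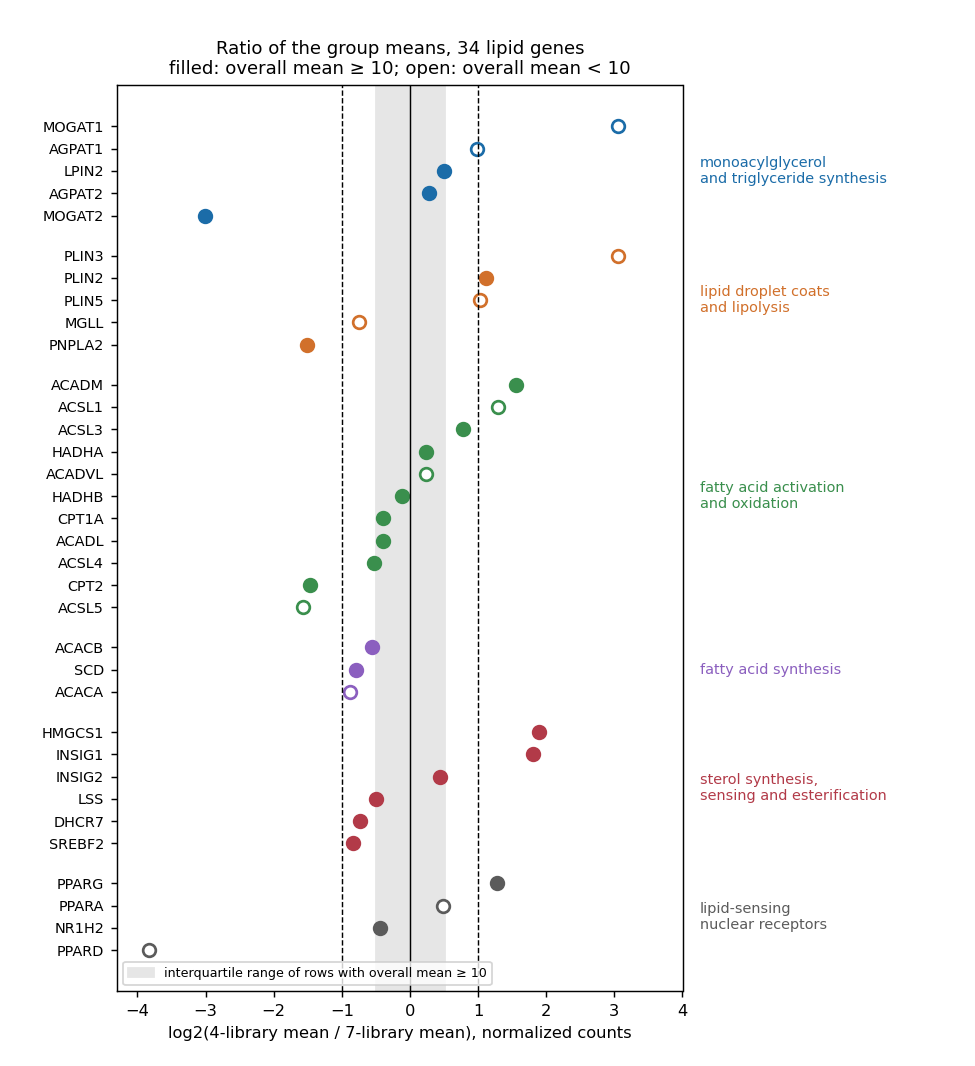
Log2 ratio of the group means, 4-library over 7-library (x axis), for each of the 34 lipid genes, grouped and coloured by role; dashed lines mark a 2-fold difference and the grey band the interquartile range of all rows with an overall mean of at least 10. PPARD at -3.83 and MOGAT2 at -3.01 lay farthest to the left, and MOGAT1 and PLIN3, both at 3.06, farthest to the right; 3 of these 4 had an overall mean under 10 (open symbols).

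Because a group mean averages whole reads divided by size factors, the reads of single libraries could be worked back from it where only 1 combination of them gave the deposited value. The 4 libraries could be read for 21 lipid genes, and all 11 for 9 of these. The 4 libraries had size factors of 1.56, 1.03, 0.620 and 0.372, and those of the 7 lay between 0.702 and 1.73. Values of the 4 libraries are given below in this order, from the deepest to the shallowest library. The libraries cannot be linked to animals. For 13 genes, all with a 4-library mean above 100, only the group means are known, so that the spread between animals is unknown and no test was possible.

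In 8 of the 21 genes (38.1%) each of the 4 libraries lay below the 7-library mean, and in 2 (9.52%) each lay above it. The same held for 17.8% and 10.6% of the 10144 rows with recovered reads. Among rows with an overall mean of at least 10 it was 5 of 10 lipid genes below, where 27.1% of such rows were, and 0 above, where 13.2% were. Rows and genes entered these counts only with a 4-library mean below 100. Those high in the 4 libraries, PLIN2, HMGCS1 and INSIG1 among them, were thus left out. The counts below and above therefore cannot be compared with each other. The 8 genes were MOGAT2, PNPLA2, ACSL5, CPT2, ACACA, ACACB, DHCR7 and PPARD, and the 2 were AGPAT1 and PLIN3. With a ratio of at least 2-fold besides, 5 lay below (10.3% of rows) and 1, PLIN3, above (7.4% of rows). For ACACB the margin was slight, since the shallowest library held a normalized count of 91.468 and the 7-library mean was 91.520.

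Among the genes of triglyceride synthesis, MOGAT2, an acyltransferase that joins a fatty acid to monoacylglycerol and is best known from the small intestine, was 8.07-fold lower in the 4-library mean. Its 4 libraries held 11, 25, 8 and 5 reads, or normalized counts of 7.06, 24.3, 12.9 and 13.5. Each of them lay far below the 7-library mean of 116, and the highest was 24.3. The 4-library mean was 14.4 ± 7.21 (SD, n = 4), a log2 ratio of -3.01. A ratio this low was seen in 19 of the 10225 rows with an overall mean of at least 10 (0.186%). The study lists MOGAT2 among its genes of highest fold change in these same data, so this rank is no independent support. When each of the 4 was left out, MOGAT2 stayed between -3.39 and -2.78 on the log2 scale. The reads of the 7 libraries could not be recovered for MOGAT2, so whether all 7 were high is not known.

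Most markers of neutrophils moved with MOGAT2. Of 20 listed neutrophil markers 14 had a row, and 11 of the 14 were at least 2-fold lower in the 4-library mean, against 10.4% of all rows. Their median log2 ratio was -2.29. Their summed normalized counts were 3001 in the 4-library mean and 15020 in the 7-library mean. The receptors CXCR2, at 65.4 and 598, and CSF3R, at 425 and 1990, and the calcium-binding protein S100A9, at 835 and 5429, were all lower in the 4-library mean. MPO, at 4.44 and 2.34, and MME, at 1.95 and 1.30, were higher in it. CXCR2 reached normalized counts of 12.8, 38.0, 168 and 43.0 in the 4 libraries. Like MOGAT2 it was lowest in the deepest library, but the library with its highest value was another one. The part of neutrophil number in the MOGAT2 difference was not tested, and in bulk RNA fewer cells of a type and less RNA per cell cannot be told apart. Markers of leukocytes in general showed no 2-fold difference in any of the 6 genes with a row. Of the 3 enterocyte markers with a row 0 were at least 2-fold lower: VIL1 was at 1.13 and 1.53, APOA4 at 3.81 and 0.977, and LCT at 104 and 62.9.

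MOGAT1, the related monoacylglycerol acyltransferase, lay in the opposite direction at very low counts. Its 4 libraries held 0, 0, 2 and 2 reads, and the 7 libraries held 2 reads in all, both in 1 library. The group means were 2.15 and 0.258 normalized counts, an 8.33-fold ratio. Its 95% counting interval of 2.31 to 68.8 covers the error of the 2 reads of the 7 libraries only. The error of the 4 reads of the 4 libraries and the spread between animals are left out. The ratio is thus less certain than this interval shows. The libraries of the groups overlapped, and the exact two-sided permutation test over the 330 splits of 11 libraries gave p = 0.218. Of the groups' 11 libraries, 8 thus held no read of MOGAT1.

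AGPAT1, AGPAT2 and LPIN2 act on the steps before diacylglycerol, as acyltransferases of lysophosphatidic acid and a phosphatidate phosphatase. AGPAT1 had normalized counts of 5.77, 16.5, 4.84 and 5.38 in the 4 libraries and of 0.904 to 13.4, with a median of 2.31, in the 7. Each of the 4 lay above the 7-library mean of 4.12, but the groups overlapped (exact permutation p = 0.218). Over its 12 alternatives, with 1 library left out or on the log2 scale, the exact permutation p of AGPAT1 ranged from 0.0286 to 0.6. The lowest was without the library of the 7 with the highest value, of size factor 1.19, and its adjusted p over all rows tested was 0.384. The highest was without the library of the 4 with the highest value, of size factor 1.03. AGPAT2 was at 276 and 228 and LPIN2 at 919 and 651 in the 4-library and 7-library means. Both differences were under 2-fold, with log2 ratios of 0.27 and 0.50.

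The perilipins PLIN2, PLIN3 and PLIN5 were at least 2-fold higher in the 4-library mean, PLIN5 by a margin that rested on single libraries, and PLIN3 separated the libraries of the groups. PLIN3 is a coat protein that moves between cytosol and new droplets. Its 4 libraries held normalized counts of 7.70, 8.76, 24.2 and 10.8, from 40 reads in all. The 7 libraries ranged from 0 to 4.27, with a median of 1.68, from 14 reads. Each of the 4 lay above each of the 7, an arrangement found in 2.81% of the 4771 rows with all 11 libraries. The opposite arrangement, found in 0.168%, was seen in 0 of the 9 lipid genes. These rows entered only with a 7-library mean below 10 and a 4-library mean below 100. Rows high in the 7 libraries were thus left out, so the 2 arrangements cannot be compared in frequency. The means were 12.8 ± 7.66 (SD, n = 4) and 1.54 ± 1.44 (SD, n = 7), a log2 ratio of 3.06. The exact permutation p was 0.00606, the smallest that 330 splits can give, and the adjusted p (Benjamini-Hochberg over the 4771 rows) was 0.204. Across these rows 731 (15.3%) had an unadjusted exact p under 0.05, 142 reached the smallest p and 0 an adjusted p under 0.05, so no lipid gene passed the adjusted test.

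PLIN2, the droplet coat found in most cell types, was at 1796 in the 4-library mean and 831 in the 7-library mean, a 2.16-fold ratio. A ratio as high was seen in 7.31% of rows with an overall mean of at least 100. The spread of PLIN2 between libraries is not known. PLIN5, which links droplets to mitochondria in oxidative tissue, was at 0, 2.92, 0 and 8.07 in the 4 libraries, from 6 reads. In the 7 libraries 13 reads fell in 2 libraries and the other 5 had none. Its 2.04-fold ratio rested on the shallowest library, since without it the log2 ratio was -0.47 (exact permutation p = 0.558 with all libraries).

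Adipocyte markers were nearly absent, with 3 of 6 markers in the table and summed means of 3.19 and 1.32 normalized counts. Markers of platelets with a row were higher in the 4-library mean, as PLIN2 and PLIN3 were. Of 10 listed markers 5 had a row, all with an overall mean of at least 10, and 4 were at least 2-fold higher. Of rows with such an overall mean 12.3% were at least 2-fold higher, and of all rows 23.9%. The summed means of the 5 were 8889 and 3007. ITGB3 was at 4725 and 1019 and GP9 at 66.1 and 18.6. Each of the 4 libraries of GP9 lay above the 7-library mean, while those of GP1BA and GP1BB lay on both sides. The part of platelets in the perilipin differences was not tested.

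The lipase PNPLA2 lay in the other direction. PNPLA2, adipose triglyceride lipase, which starts the breakdown of stored fat, held 22, 9, 2 and 3 reads in the 4 libraries, or 14.1, 8.76, 3.22 and 8.07 normalized counts. All 4 values lay below the 7-library mean of 24.4. The 4-library mean was 8.54 ± 4.46 (SD, n = 4), a 2.86-fold lower level, and 3.28% of rows with an overall mean of at least 10 had a ratio as low. MGLL, which splits monoacylglycerol in the final step, had means of 1.85 and 3.10, with 0 reads in 2 of the 4 libraries and in 1 of the 7 (exact permutation p = 0.394).

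**Figure D2:**
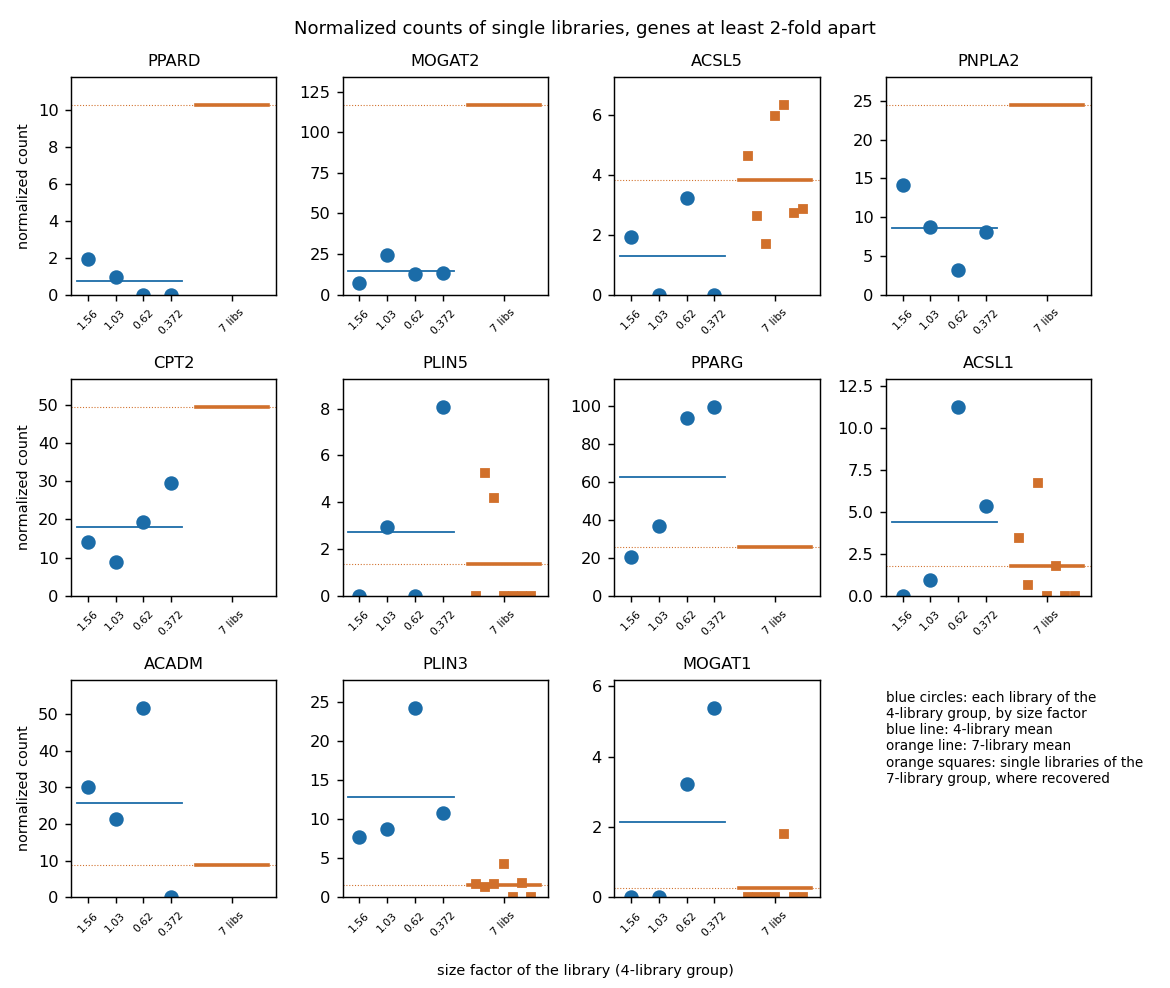
Normalized counts (y axis, from 0) of single libraries for the 11 lipid genes with recovered reads and a ratio of at least 2-fold; circles are the 4 libraries ordered by size factor, lines are the group means and squares the 7 libraries where all were recovered. For MOGAT2, PNPLA2, CPT2, PPARD and ACSL5 all 4 circles lie below the 7-library mean, while for PLIN5, ACSL1, ACADM, PPARG and MOGAT1 they lie on both sides.

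All 11 listed genes of fatty acid activation and oxidation had a row. Of these 2 were at least 2-fold higher and 2 at least 2-fold lower, with a median log2 ratio of -0.11. Over all rows the shares were 23.9% and 10.4%. CPT2, the inner-membrane enzyme of the carnitine shuttle, had normalized counts of 14.1, 8.76, 19.3 and 29.6 in the 4 libraries. All 4 lay below the 7-library mean of 49.5. The 4-library mean was 18.0 ± 8.88 (SD, n = 4), 2.76-fold lower, and 3.63% of rows with an overall mean of at least 10 had a ratio as low. CPT1A, which makes the acylcarnitine at the outer membrane, was at 319 and 418, a log2 ratio of -0.39.

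The dehydrogenases did not share a direction. ACADM, the medium-chain acyl-CoA dehydrogenase, had normalized counts of 30.1, 21.4, 51.6 and 0 in the 4 libraries, from 101 reads. The 4-library mean was 25.8 ± 21.4 (SD, n = 4) and the 7-library mean 8.78, a log2 ratio of 1.55, and 5.9% of rows with an overall mean of at least 10 had a ratio as high. The shallowest library held no read, so the 4 libraries lay on both sides of the 7-library mean. Without the library of size factor 0.620 the log2 ratio of ACADM was 0.97, just under 2-fold. ACADL, for long chains, was at 659 and 870. ACADVL, for very long chains, was at 6.34 and 5.39, and its libraries overlapped (exact permutation p = 0.667). HADHA and HADHB, the subunits of the trifunctional protein, were at 2246 and 1906 and at 600 and 649, with log2 ratios of 0.24 and -0.11.

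The acyl-CoA synthetases, which activate fatty acids, lay in both directions. ACSL3, which sits on nascent droplets, was at 1620 and 942, a log2 ratio of 0.78. ACSL4, which prefers arachidonic acid, was at 1313 and 1884, a log2 ratio of -0.52. These are the pair with high counts, and neither was 2-fold apart. ACSL1 had normalized counts of 0, 0.974, 11.3 and 5.38 in the 4 libraries and of 0 to 6.71 in the 7, with means of 4.41 and 1.81. Its log2 ratio of 1.29 was 0.23 without the library of size factor 0.620, and the exact permutation p was 0.327. ACSL5 had normalized counts of 1.92, 0, 3.22 and 0 in the 4 libraries and of 1.68 to 6.33 in the 7. Each of the 7 libraries thus held ACSL5 reads and 2 of the 4 held none. The means were 1.29 and 3.83, a log2 ratio of -1.57, with an exact permutation p of 0.0545 and an adjusted p of 0.325. Leaving out 1 library at a time gave an exact permutation p of 0.0333 (without size factor 0.620) to 0.15, and 0.0381 without the library of the 7 with size factor 1.19.

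The fatty acid synthesis genes with a row were lower in the 4-library mean, each by under 2-fold. ACACA, the acetyl-CoA carboxylase of the cytosol, had means of 1.48 and 2.73, and 0 to 2.69 in the 4 libraries overlapped 0 to 8.55 in the 7 (exact permutation p = 0.552). ACACB, the carboxylase at the mitochondrial membrane, whose product inhibits the carnitine shuttle, had normalized counts of 79.5, 37.0, 40.3 and 91.5 against a 7-library mean of 91.5. SCD, the desaturase that makes oleate, had 5.13, 7.79, 14.5 and 32.3 against 25.8. The shallowest library was thus the highest of the 4 for each of these genes, and for SCD it lay above the 7-library mean. Over the 21 genes it was the highest for 9 (42.9%), and over all rows with recovered reads for 34.4%.

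HMGCS1 and INSIG1 were the well-expressed lipid genes with the highest ratios. HMGCS1, which makes the precursor of mevalonate at the start of cholesterol synthesis, was at 2000 in the 4-library mean and 540 in the 7-library mean, a 3.70-fold ratio. INSIG1, which holds the SREBP complex in the endoplasmic reticulum and is itself a target of SREBP, was at 605 and 173, a 3.49-fold ratio. Ratios as high were seen in 2.08% and 2.29% of the 5238 rows with an overall mean of at least 100. The spread of either gene between animals is not known, since means of this size allow many combinations of reads.

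The other sterol genes of the list lay within 2-fold. INSIG2, the INSIG form that is not a strong SREBP target, was at 167 and 123. SREBF2, which encodes the sterol-responsive SREBP itself, was at 117 and 209, a log2 ratio of -0.83. Both are group means only. LSS, which closes the sterol rings, had normalized counts of 52.6, 5.84, 9.67 and 40.4, spread on both sides of the 7-library mean of 38.4. DHCR7, which completes cholesterol, had 21.8, 29.2, 9.67 and 32.3, all below the 7-library mean of 38.6. Their log2 ratios were -0.50 and -0.73.

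Of 24 further genes of sterol synthesis and uptake that were counted, 18 had a row, with a median log2 ratio of -0.03. Of the 18, 2 were at least 2-fold higher and 2 at least 2-fold lower, against 23.9% and 10.4% of all rows. The kinase PMVK, a mevalonate step after HMGCS1, had 12.8, 5.84, 0 and 5.38 normalized counts in the 4 libraries against a 7-library mean of 16.1, each below it. The 14 genes under 2-fold ranged in log2 ratio from -0.28 (MBTPS2) to 0.88 (SC5D, at 757 and 411). GGPS1, which makes a prenyl donor from the same pathway, was at 51.5 and 28.5, with each of the 4 libraries above the 7-library mean.

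**Figure D3:**
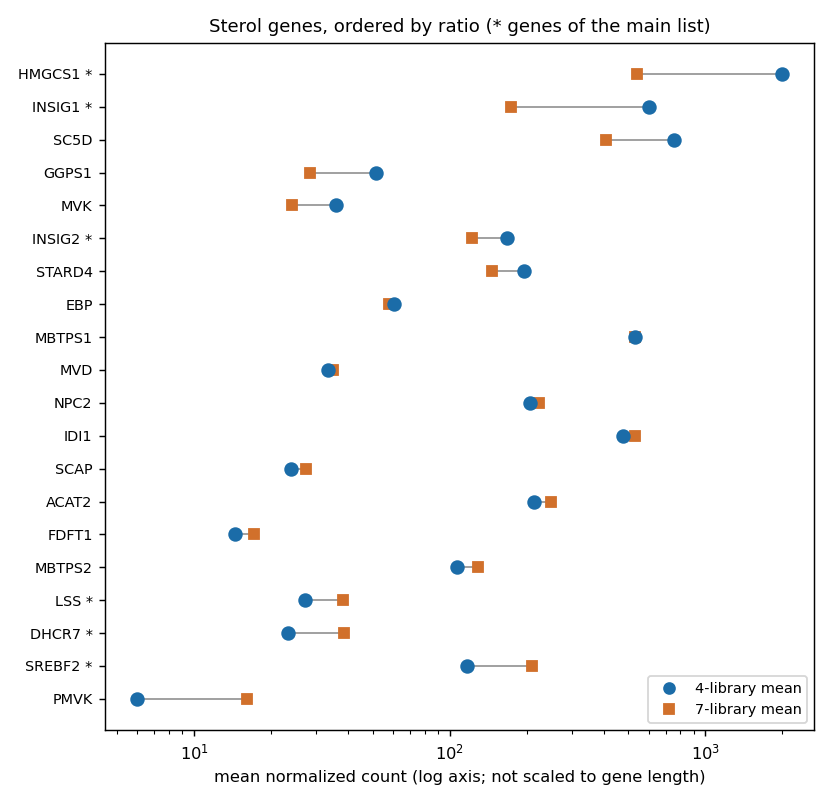
Group means of normalized counts (log axis) for the 6 sterol genes of the main list (asterisks) and 14 further sterol genes with an overall mean of at least 10, ordered by ratio; circles are 4-library means and squares 7-library means. HMGCS1 and INSIG1 stand at the top, at ratios above 2-fold, PMVK at the bottom, and most of the other pairs nearly touch.

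Of the nuclear receptors that bind lipids, PPARG, the receptor of fat storage and of macrophage lipid uptake, had normalized counts of 20.5, 37.0, 93.5 and 99.5 in the 4 libraries. The deepest library lay below the 7-library mean of 25.8 and the other 3 above it. The 4-library mean was 62.6 ± 39.8 (SD, n = 4), a log2 ratio of 1.28, and 8.34% of rows with an overall mean of at least 10 had a ratio as high. Without the shallowest library the log2 ratio of PPARG was 0.96. PPARD, the widely expressed form, held 3, 1, 0 and 0 reads in the 4 libraries. Its 4-library mean was 0.724 and its 7-library mean 10.3, a 14.2-fold lower level with a 95% counting interval of 5.54 to 52.0. All 4 libraries of PPARD lay below the 7-library mean, the highest at 1.92. Counting intervals cover the counting error of the lower mean only, with the higher mean taken as fixed and the spread between animals left out.

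PPARA, which drives oxidation genes, had normalized counts of 7.70, 12.7, 9.67 and 13.5 in the 4 libraries against a 7-library mean of 7.73. The lowest library lay just under that mean, and the 4-library mean was 10.9 ± 2.67 (SD, n = 4). NR1H2, an oxysterol receptor that is present in most tissues, had 96.2, 95.4, 143 and 35.0 against 126, a log2 ratio of -0.44. Neither PPARA nor NR1H2 was 2-fold apart.

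**Figure D4:**
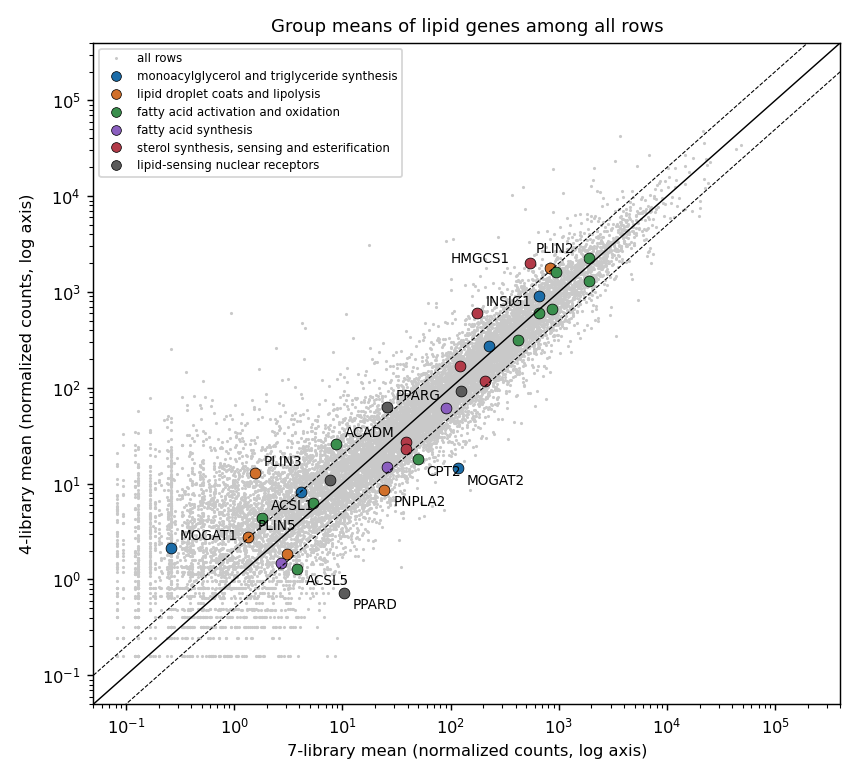
The 4-library mean (y axis) against the 7-library mean (x axis) of normalized counts, both on log axes, for all 15298 rows (grey) and the 34 lipid genes (coloured by role); solid line, equal means; dashed lines, 2-fold. The 14 labelled genes are those at least 2-fold apart, and most of the other 20 lie within the body of the grey cloud.

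Further genes of each pathway were counted from lists by role, to be read against 23.9% of all rows at least 2-fold higher and 10.4% at least 2-fold lower. Of 29 further droplet and lipolysis genes 15 had a row, of which 6 were at least 2-fold higher and 1 at least 2-fold lower. Of the 6, 4 (FITM2, PNPLA1, HSD17B11 and PLIN1) had an overall mean under 10, where 47.3% of all rows were at least 2-fold higher. G0S2, an inhibitor of the lipase PNPLA2, was at 179 and 19.6, a log2 ratio of 3.20. RAB18, a GTPase on droplets, was at 275 and 124. ABHD5, the activator of the lipase, was at 902 and 1577, a log2 ratio of -0.81, and the acyltransferase AGPAT4 was at 33.5 and 83.0, with each of the 4 libraries below the 7-library mean. The lipases LIPA, at 1288 and 1069, and ABHD6, at 30.8 and 21.1, were under 2-fold apart. The median log2 ratio of these 15 genes was 0.55.

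Of 34 further oxidation genes 22 had a row, 5 with a higher and 17 with a lower 4-library mean, at a median log2 ratio of -0.20. Of all rows 6669 of 15298 had a lower 4-library mean, and of those with an overall mean of at least 10, as in 21 of the 22 genes, 5191 of 10225. At the 2-fold level 2 were higher and 2 lower. ANGPTL4, a secreted inhibitor of lipoprotein lipase and a PPAR target, had normalized counts of 20.5, 3.89, 121 and 43.0 in the 4 libraries and of 0 to 7.55 in the 7. The library of size factor 1.03 thus lay within the range of the 7, and the other 3 above it. The group means of ANGPTL4 were 47.1 and 2.14. The carnitine importer SLC22A5 was at 38.3 and 129, and PDK4, the kinase that turns cells from glucose to fat, at 30.3 and 71.4. In both of them each of the 4 libraries lay below the 7-library mean, as they did in SLC25A20, the carrier of the carnitine shuttle, at 22.5 and 36.3.

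Of 25 further genes of fatty acid synthesis, elongation and desaturation 18 had a row, of which 2 were at least 2-fold higher and 2 lower (median log2 ratio -0.03). The elongases lay in both directions. ELOVL3 had normalized counts of 22.5, 67.2, 43.5 and 40.4 against a 7-library mean of 202, each below it. ELOVL4 had 5.77, 9.74, 59.6 and 102 against 9.26, of which the deepest library lay below. TECR, a reductase of the elongation cycle, had 0, 7.79, 0 and 16.1 against 12.8, on both sides. Of 18 oxysterol receptor targets and lipid carriers 9 had a row, with 3 at least 2-fold higher and 1 lower (median log2 ratio 0.13). The fatty acid translocase CD36 was at 45.4 and 22.2, with 19.2, 46.7, 113 and 2.69 in the 4 libraries, on both sides of the 7-library mean.

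**Figure D5:**
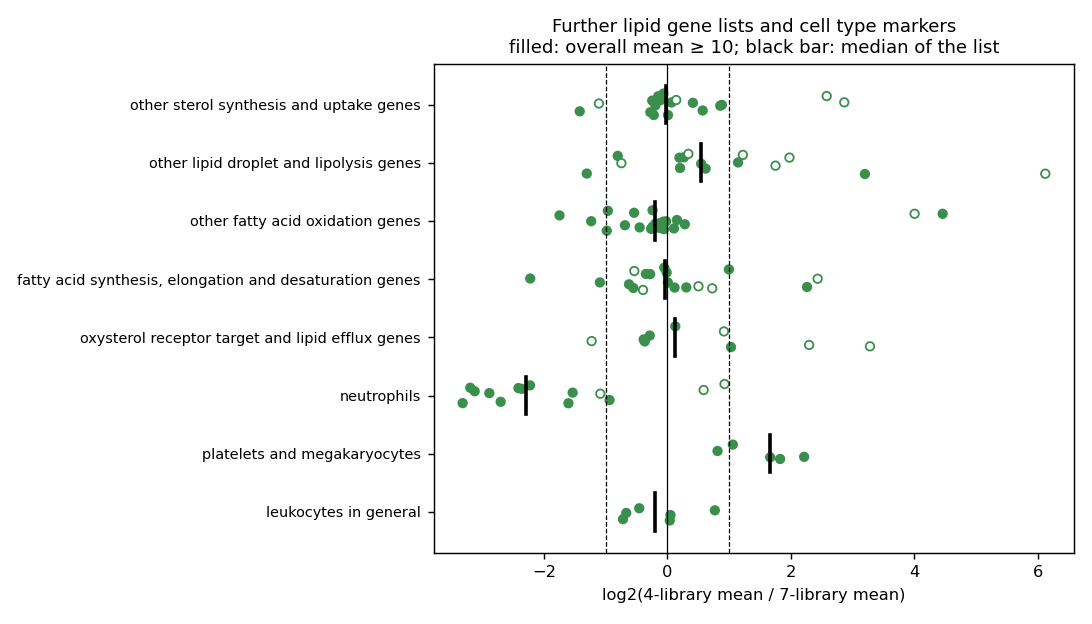
Log2 ratio of the group means, 4-library over 7-library (x axis), for the genes of the 5 further lipid lists and of 3 lists of cell type markers; filled points have an overall mean of at least 10 and black bars mark list medians. The lipid lists centre near 0, the droplet list at 0.55, while the neutrophil markers centre at -2.29 and the platelet markers at 1.66.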

How the data were processed

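RNA-seq of buffy coats from 4 red tide and 7 control manatees was analysed from the authors' table. Reads were trimmed with Cutadapt, mapped to TriManLat1.0 with Bowtie2, freed of duplicates, kept where uniquely mapped and counted per gene sequence. The study names in-house scripts of its sequencing centre, SAMtools and the DEB tool for counting, with no strand setting or annotation release. The deposited values used are a signal, namely counts that the authors divided by DESeq size factors and averaged over all libraries and within each group. Further deposited columns (the fold change with its log2, and p-values before and after adjustment) hold the study's own comparison and were not used. No column belongs to a single sample (unused columns of this kind: 0), so the test of counts per sample could not be made.

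Records were matched to RefSeq symbols without the version number, which named 10080 of 15298 rows (65.9%). Genes were called at a 2-fold ratio of the group means, with no test. What 1 read is worth in each library was found from the lowest means. Reads were searched for 4-library means below 100 and 7-library means below 10, to within 6e-10 below 10 and 6e-09 above, and kept where a single combination gave the mean. This held for 10144 of 10159 rows (99.9%) and 4787 of 5439 rows (88.0%), so all 11 libraries are known for low means only. The table gives no total of counted reads per library. Relative depth was read from the size factors, the largest of which was 4.66 times the smallest. The search was tested on simulated data. Rows with 11 libraries were tested by exact two-sided permutation with Benjamini-Hochberg adjustment. Each library is from a separate animal, and animals of a group also differed in place or in time under treatment. The exact p ranks the difference between the groups among those of all splits of these 11 libraries. It does not separate illness from place, date or handling. Counting intervals are exact and of 95% for the reads of the lower group, with the mean of the higher group taken as fixed. They pool the reads of the lower group and leave out the spread between animals.

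Described in full were genes at least 2-fold apart, MOGAT2, and genes with all 4 libraries on one side of the 7-library mean. In further lists up to 4 genes with the largest ratios, an overall mean of at least 10 and a 2-fold difference are named. ABHD5, LIPA, ABHD6, SC5D, MBTPS2, GGPS1 and SLC25A20 were named after their values were seen. Some items of the sterol list are not reported here. The genes and lists were chosen with earlier results of these data known. The marker lists of monocytes (1 of 8 genes higher), T cells (0 of 5 higher and 2 lower), B cells (1 of 4 lower), NK cells (1 of 3 lower), erythroid cells (1 of 6 higher and 2 lower) and hepatocytes (2 of 3 lower) were also counted at the 2-fold level. Beside these counts, 23.9% of all rows were at least 2-fold higher and 10.4% at least 2-fold lower. Python 3.11.15, numpy 2.4.6, pandas 2.3.3, scipy 1.17.1 and matplotlib 3.10.9 were used.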

Additional observations from a re-analysis of the deposited data

Results flagged for a closer look

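In 30 groups of single libraries, 4 held a value far from the others by Dixon's criterion. Its rate of about 1 in 20 groups holds for normally distributed values. Many of these groups are low read counts, some with zeros, so the number flagged cannot be set against that rate. For MOGAT1 the library of size factor 1.107 held 1.81 normalized counts, from 2 reads, and the other 6 of the 7 libraries held 0. For AGPAT1 the library of size factor 1.03 held 16.5, where the next of the 4 held 5.77. Also for AGPAT1, the library of size factor 1.19 held 13.4, where the next of the 7 held 5.70. For PLIN3 the library of size factor 1.17 held 4.27, where the next of the 7 held 1.81, and it still lay below the lowest of the 4 libraries, at 7.70.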

How the results depend on the processing

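The count of genes at least 2-fold lower, 5, became 10 at 1.5-fold, 2 at 3-fold and 3 among genes with an overall mean of at least 10, and leaving out 1 of the 4 libraries gave 6 to 7. The count at least 2-fold higher, 9, became 4 at 3-fold and 5 with an overall mean of at least 10, and 8 to 10 with 1 library left out. The count with each of the 4 libraries above the 7-library mean, 2, became 0 with an overall mean of at least 10, and 2 to 4 with 1 library left out, of which 4 was without size factor 1.56. The count with each below, 8, became 5 with an overall mean of at least 10 and 8 to 10 with 1 library left out. Centring the ratios on the median of rows with an overall mean of at least 10 gave 3 above and 7 below. PLIN5, whose log2 ratio was at most 1.44 and whose exact permutation p was 0.367 to 0.933 with 1 library left out, reversed without the library of size factor 0.372, to a log2 ratio of -0.47 at p = 0.933. ACADVL reversed without that of 1.56, at an exact permutation p of 0.8 within a range of 0.433 to 0.962. MOGAT1 had a log2 ratio of 1.32 once 1 had been added to each mean. The median of the droplet genes was -0.20 with an overall mean of at least 10, where 2 genes remained. The exact permutation p of PLIN3 ranged from 0.00606 to 0.0167 over its 12 alternatives and its adjusted p was never below 0.144. No paired analysis was possible because the recovered libraries cannot be tied to the replicate numbers of the labels. Depth limits the rest, since MOGAT1 and PPARD had 4 reads each in the 4 libraries. Their ratios are less certain than the counting intervals show, because these cover the lower mean only. The spread between animals is not in them either.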

Other observations

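Some weakly expressed lipid genes outside the list described above had values in all 11 libraries, and were picked after their values were seen. PPARGC1A, a coactivator of oxidation genes, had normalized counts of 1.28, 3.89, 22.6 and 5.38 in the 4 libraries and of 0 to 1.81 in the 7, where 4 reads were found in all. PLTP, the phospholipid transfer protein, had 5.77, 2.92, 16.1 and 18.8 in the 4 libraries and 0 to 5.97 in the 7. FITM2, which helps droplets bud from the endoplasmic reticulum, had 5.77, 10.7, 14.5 and 5.38 in the 4 and 0 to 5.97 in the 7. For each of these genes the 4 libraries lay above the 7-library mean while the ranges of the groups overlapped.

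The library of size factor 0.620 held the highest value of the 4 for PLIN3, ACSL1 and ACADM, which were higher in the 4-library mean. It also did so for MGLL, ACSL5 and NR1H2, which were lower. Of the further genes it was highest for ANGPTL4, PPARGC1A and CD36. Among cell markers it was highest for the platelet genes GP1BA, at 179, GP1BB, at 59.6, and GP9, at 152, and for the neutrophil receptor CXCR2, at 168. Over all rows with recovered reads it was the highest in 30.9%, and over the 21 lipid genes in 6 (28.6%).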
